A study of Homo sapiens with 8 samples.

Results

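The replication origin licensing factors are the proteins that load the replicative DNA helicase onto chromosomes before S phase and keep it from being loaded again. 10 genes of this system were chosen by name, namely MCM2, MCM3, MCM4, MCM5, MCM6, MCM7, MCM10, CDC6, CDT1 and GMNN, out of the 34809 gene names on the array. 12 array probes carried these names, and all 12 were well above background on all 8 arrays, so that all 10 genes were among the 20463 genes tested.

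In G1 phase, the origin recognition complex marks an origin, CDC6 and CDT1 join it, and the ring of MCM2 to MCM7 is closed around DNA in an inactive form. In S phase, CDC45 and the GINS complex turn the ring into a working helicase, with MCM10 needed for that step, while geminin, the product of GMNN, holds CDT1 so that no origin is licensed again. Transcripts of these genes are widely used as signs of proliferating cells, and cells that leave the cycle lose most of them.

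The cells were HuCCT1, an established human intrahepatic cholangiocarcinoma line, carrying a short hairpin RNA vector. The groups were shControl, shNontarget, shBEX2-1 and shBEX2-2, with 2 arrays each, and the comparison asked what lowering BEX2, an X-linked gene, did to the transcripts. According to the methods, the BEX2 hairpins were delivered by a retroviral vector, and the listed target sequences overlap on opposite strands of the same stretch. The listing does not say which sequence belongs to which vector label, and whether it is free of error could not be checked here, so a shared target site of the hairpins was not tested. The labels do not say whether a subline was a clone or a pool, nor whether replicate arrays came from separate cultures, so p-values measure only the spread between these arrays. The shControl and shNontarget arrays (4 in all) are called the control arrays here, and the shBEX2-1 and shBEX2-2 arrays the knockdown arrays.

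All 8 arrays were on 1 slide in 1 scan, the control arrays in row 1 and the knockdown arrays in row 2, so row and arm cannot be told apart. The 75th percentile of intensity, which was subtracted on the log2 scale, was 667 to 838 on the control arrays and 441 to 631 on the knockdown arrays. The shNontarget replicates stood apart from each other, as 34.9% of genes had a log2 gap over 1 between them, compared with 0.557% to 1.76% in the other vectors. The BEX2 probe read -3.36 and -3.91 in shControl, -2.70 and -3.77 in shNontarget, -5.21 and -5.54 in shBEX2-1, and -4.92 and -4.60 in shBEX2-2 (log2 intensity minus the 75th percentile). BEX2 was not well above background on either shBEX2-1 array, where it was at least 3.83-fold lower than in the control arrays (limma, adjusted p = 0.034), and in shBEX2-2 it was 2.50-fold lower (adjusted p = 0.081). The biliary markers KRT7, KRT19, EPCAM and SOX9 were above background on all 8 arrays, while of the hepatocyte markers ALB and APOB were above it on none and CYP3A4 on 1. Of the fibroblast markers COL1A1 was above background on 8 arrays, DCN on 2 and COL1A2 and COL3A1 on none, and of the endothelial markers CDH5 and VWF on 8 and PECAM1 on none. The summed level of the fibroblast list was -2.38 to -0.50 in the control arrays and -1.78 to -1.59 in the knockdown arrays, and that of the endothelial list -2.89 to -2.24 and -2.63 to -2.35 (log2). Of the leukocyte markers, CD68 was above background on 8 arrays, PTPRC on 7 and CD3E on 3. The summed level of the leukocyte list was -1.57 to -0.78 in the control arrays and -0.37 to 0.17 in the knockdown arrays (log2), and CD68 was the only gene of these marker lists that passed the test described below (log2 fold change 0.99, adjusted p = 0.047). The part of this in the results was not tested.

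9 of the 10 licensing factors were higher in the knockdown arrays than in the control arrays, with log2 fold changes from 1.25 for MCM2 to 2.17 for MCM10, and only MCM7, at 0.58, did not pass the test. The test was limma's moderated comparison of 4 knockdown with 4 control arrays, called at a Benjamini-Hochberg adjusted p under 0.05 over all 20463 genes. By the same rule 6.68% of all genes were called higher (1366 genes). The median log2 fold change was 1.54 over the 10 licensing factors and 0.03 over all genes tested. In bulk RNA, more cells expressing a transcript and more transcript in each cell cannot be told apart. The plot of all 10 genes by array shows the values behind these differences.

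**Figure D1:**
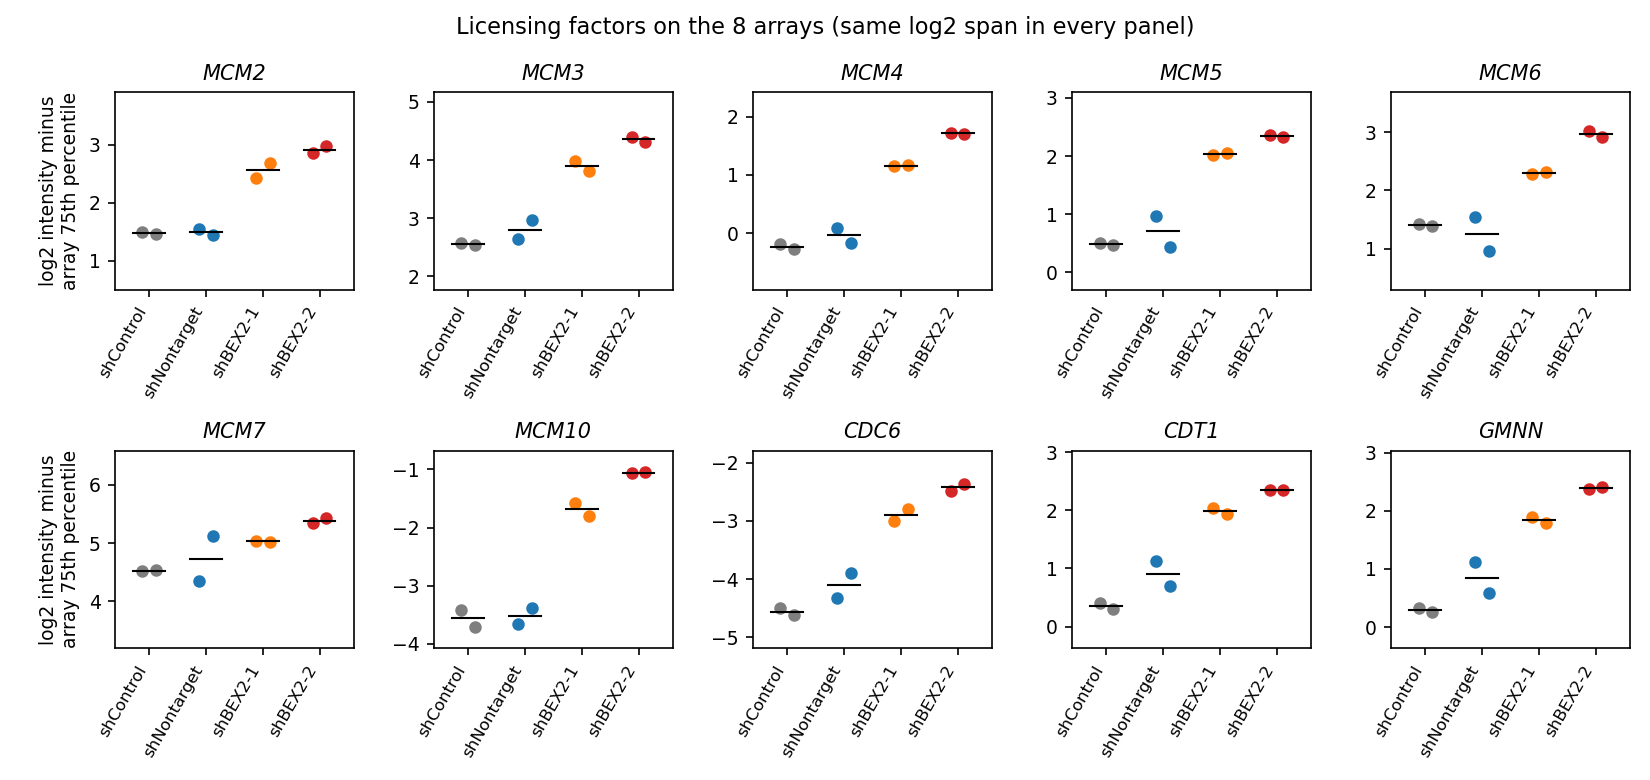
Each panel shows 1 licensing factor on the 8 arrays, as log2 intensity minus the array's 75th percentile, by vector; points are arrays, black lines are vector means (n = 2), and every panel spans the same log2 range. In 9 of the 10 genes all 4 knockdown arrays lie above all 4 control arrays, and in MCM7 shNontarget replicate 2, at 5.11, lies above both shBEX2-1 arrays.

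The MCM2 to MCM7 genes encode the 6 subunits of the helicase ring. Positions of the 60-base probes are given here on hg19, as the array design lists them; the MCM5 probe used had none. On the scale of log2 intensity minus the 75th percentile, MCM5 read 0.51 and 0.46 in shControl, 0.96 and 0.44 in shNontarget, 2.01 and 2.05 in shBEX2-1, and 2.36 and 2.33 in shBEX2-2. MCM4 read -0.19 and -0.27 in shControl, 0.09 and -0.17 in shNontarget, 1.15 and 1.16 in shBEX2-1, and 1.73 and 1.71 in shBEX2-2. In both genes every knockdown array was above every control array, and the gap between the arms was over 1 on the log2 scale (1.05 for MCM5 and 1.06 for MCM4). MCM5 was 3.02-fold higher (log2 fold change 1.59, SE 0.16, adjusted p = 0.0010) and MCM4 2.98-fold higher (1.58, SE 0.18, adjusted p = 0.0013). MCM3 (probe at chr6:52128893-52128952, minus strand), on the same scale, lay at 2.55 to 2.97 in the control arrays and at 3.81 to 4.39 in the knockdown arrays. Its level was 2.72-fold higher in the knockdown arrays (log2 fold change 1.44, SE 0.17, adjusted p = 0.0016).

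MCM2, which contributes a subunit at the gate through which the ring opens onto DNA, varied least among the control arrays (probe at chr3:127340805-127340864, plus strand). It read 1.50 and 1.46 in shControl, 1.56 and 1.44 in shNontarget, 2.43 and 2.69 in shBEX2-1, and 2.86 and 2.97 in shBEX2-2, and was 2.38-fold higher in the knockdown arrays (log2 fold change 1.25, SE 0.14, adjusted p = 0.0013). MCM6 (probe at chr2:136598217-136598276, minus strand) read 1.42 and 1.39 in shControl, 1.55 and 0.96 in shNontarget, 2.28 and 2.32 in shBEX2-1, and 3.03 and 2.92 in shBEX2-2. The low shNontarget array widened the control spread of MCM6, yet all knockdown arrays were above all control arrays (2.47-fold, log2 fold change 1.31, SE 0.21, adjusted p = 0.0058). With the shNontarget arrays alone as the control, the log2 fold change of MCM6 was 1.38 with an adjusted p of 0.071.

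MCM7 was the exception in the ring (probe at chr7:99690520-99690579, minus strand). It read 4.52 and 4.54 in shControl, 4.35 and 5.11 in shNontarget, 5.03 and 5.02 in shBEX2-1, and 5.34 and 5.43 in shBEX2-2. The arms overlapped, because shNontarget replicate 2 was above both shBEX2-1 arrays. The log2 fold change was 0.58 (95% interval 0.14 to 1.01, adjusted p = 0.086), so a rise of up to 1.01 on the log2 scale was within the interval. Without shNontarget replicate 2 the log2 fold change was 0.74 and passed the test (adjusted p = 0.0091), and against the shControl arrays alone it was 0.68 (adjusted p = 0.0080). The other MCM7 probe (chr7:99697277-99697336, minus strand), which the array design assigns to another transcript of the gene, gave a log2 fold change of 0.33 (SE 0.17, adjusted p = 0.24 over 25070 probes), with -1.45 to -0.86 in the control arrays and -1.02 to -0.65 in the knockdown arrays. In each array, MCM7 minus the mean of MCM2 to MCM6 was 2.99 to 3.99 in the control arrays and 2.47 to 2.66 in the knockdown arrays (log2). Only the shift between arrays can be read from that difference, since it sets different probes against each other. The arms did not overlap in it. The mean of MCM2 to MCM6 alone was 1.12 to 1.36 in the control arrays and 2.37 to 2.87 in the knockdown arrays. A gene that rose less than this mean would therefore tend to show the same gap, and the share of such genes was not counted. With the other MCM7 probe, the difference from the mean of MCM2 to MCM6 was -2.61 to -1.99 in the control arrays and -3.85 to -3.37 in the knockdown arrays. The MCM5 measurement, by contrast, held on its other probe, at a log2 fold change of 1.29 (SE 0.18, adjusted p = 0.0031), with no overlap between the arms.

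Since 9 of the 10 genes were called in the same direction, the RefSeq windows from 250 bases before to 50 bases after the transcription start (assembly GRCh38.p14) were searched for words associated with E2F, the factor family that drives many S-phase genes, and for CCAAT. The E2F words were TTTCCCGC, TTTCGCGC, TTTGCCGC and TTTGGCGC, each on both strands, and overlapping matches were counted separately. Windows were at hand for 8 of the 10 genes (11 windows in all), and MCM4 and MCM5 were not among them. An E2F word was found in 7 of the 11 windows, belonging to 7 of the 8 genes, while 3.31% of all 35116 windows of the same length held one. CCAAT, on either strand, was found in 8 of the 11 windows, belonging to 6 genes, and in 34.6% of all windows. For the 5 genes with an E2F word wholly upstream of the start, the stretch around it is shown in the orientation of the gene, with E2F words and CCAAT or its reverse, ATTGG, in capitals.
MCM6, chr2:135876487-135876605, minus strand: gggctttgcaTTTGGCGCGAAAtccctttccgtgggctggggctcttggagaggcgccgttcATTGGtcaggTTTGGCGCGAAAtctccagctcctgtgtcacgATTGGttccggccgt
MCM3, chr6:52284848-52284926, minus strand: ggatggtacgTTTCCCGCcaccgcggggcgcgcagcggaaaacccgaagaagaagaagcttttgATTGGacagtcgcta
GMNN, chr6:24775308-24775376, plus strand: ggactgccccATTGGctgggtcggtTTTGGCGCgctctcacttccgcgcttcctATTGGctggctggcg
CDT1, chr16:88803744-88803771, plus strand: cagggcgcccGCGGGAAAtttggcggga
MCM7, chr7:100101398-100101594, minus strand: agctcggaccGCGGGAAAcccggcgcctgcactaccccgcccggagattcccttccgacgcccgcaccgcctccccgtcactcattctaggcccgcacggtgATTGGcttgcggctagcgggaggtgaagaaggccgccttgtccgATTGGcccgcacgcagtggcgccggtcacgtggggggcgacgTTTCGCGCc

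The MCM6 stretch held the same overlapping pair of E2F words, TTTGGCGC and the reverse complement of TTTCGCGC, at 2 places. These started at positions -152 and -90 from the start site, which makes its 4 matches. MCM7 was the member that did not pass the test. Of its 3 windows 1 held E2F words, at positions -187 and -9, while the other windows held none. MCM3 had a second E2F word at position -4, across the start site, and CCAAT at -242 and -84, all outside the stretch shown. In MCM2 and CDC6 the E2F words lay just downstream of the start, at positions 3 and 7 in MCM2 and at position 8 in CDC6, which also had CCAAT at -126, -103 and -50. MCM10, the gene with the largest fold change, had no E2F word in its window and CCAAT at positions -118 and -105. A match is a description of the letters and does not show binding.

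CDC6 and CDT1 recruit the ring to the origin recognition complex. The CDC6 probe (chr17:38459354-38459413, plus strand) was dim, with an intensity of 32.2 to 44.8 on the control arrays and 55.3 to 123 on the knockdown arrays. Relative to the 75th percentile, CDC6 read -4.50 and -4.62 in shControl, -4.32 and -3.90 in shNontarget, -3.00 and -2.79 in shBEX2-1, and -2.48 and -2.36 in shBEX2-2 (log2). It was 3.20-fold higher in the knockdown arrays (log2 fold change 1.68, SE 0.22, adjusted p = 0.0027), with no overlap between the arms. The size of this difference depended on the background, since with the normexp correction the log2 fold change was 0.94 (adjusted p = 0.0014). With the shNontarget arrays alone as the control it was 1.45 and did not pass the test (adjusted p = 0.055). CDT1 (probe at chr16:88875606-88875665, plus strand) read 0.41 and 0.30 in shControl, 1.13 and 0.69 in shNontarget, 2.03 and 1.94 in shBEX2-1, and 2.35 in both shBEX2-2 arrays (log2). It was 2.90-fold higher in the knockdown arrays (log2 fold change 1.54, SE 0.20, adjusted p = 0.0023), and both shNontarget arrays were above both shControl arrays.

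GMNN encodes geminin, the inhibitor of CDT1 (probe at chr6:24786108-24786167, plus strand). It read 0.33 and 0.26 in shControl, 1.12 and 0.58 in shNontarget, 1.90 and 1.79 in shBEX2-1, and 2.38 and 2.41 in shBEX2-2 (log2). The inhibitor therefore moved in the same direction as the loader that it holds, at 2.92-fold higher in the knockdown arrays (log2 fold change 1.54, SE 0.23, adjusted p = 0.0036). Against the shNontarget arrays alone the log2 fold change of GMNN was 1.27 with an adjusted p of 0.066.

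MCM10, which is needed when the loaded ring is turned into a working helicase, had the largest fold change of the 10 (probe at chr10:13251992-13252051, plus strand). It read -3.42 and -3.71 in shControl, -3.65 and -3.38 in shNontarget, -1.57 and -1.80 in shBEX2-1, and -1.07 and -1.04 in shBEX2-2 (log2). Every knockdown array was at least 1.58 above every control array on the log2 scale, the widest gap of any licensing factor. The level was 4.50-fold higher in the knockdown arrays (log2 fold change 2.17, SE 0.21, adjusted p = 8.9e-04), and 45 of the 20463 genes had a larger log2 fold change. The probe was dim in the control arrays, at an intensity of 59.5 to 68.5, and with the normexp correction the log2 fold change was 1.54 (adjusted p = 7.3e-04).

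In total, the knockdown arrays were all above the control arrays in 9 of the 10 genes, against 11.5% of all genes tested. For these 9 genes the two-sided exact permutation test of 4 against 4 arrays gave p = 0.029, and for MCM7 it gave p = 0.086. The value 0.029 is the smallest over 70 relabellings and is given to any gene whose arms do not overlap, so it only restates the separation. The test also treats the 8 arrays as exchangeable, although each vector has 2. Without scaling between the arrays, the all-gene median stood at -0.42 on the log2 scale, a shift of -0.45 from its value with scaling, and 8 of the 10 licensing factors were still called higher, MCM6 (log2 fold change 0.86, adjusted p = 0.066) and MCM7 (0.13) being the exceptions. In that setting 393 of 4752 called genes were higher, against 1366 of 2646 with scaling. The plot of fold changes by processing sets these values beside those of every other alternative.

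**Figure D2:**
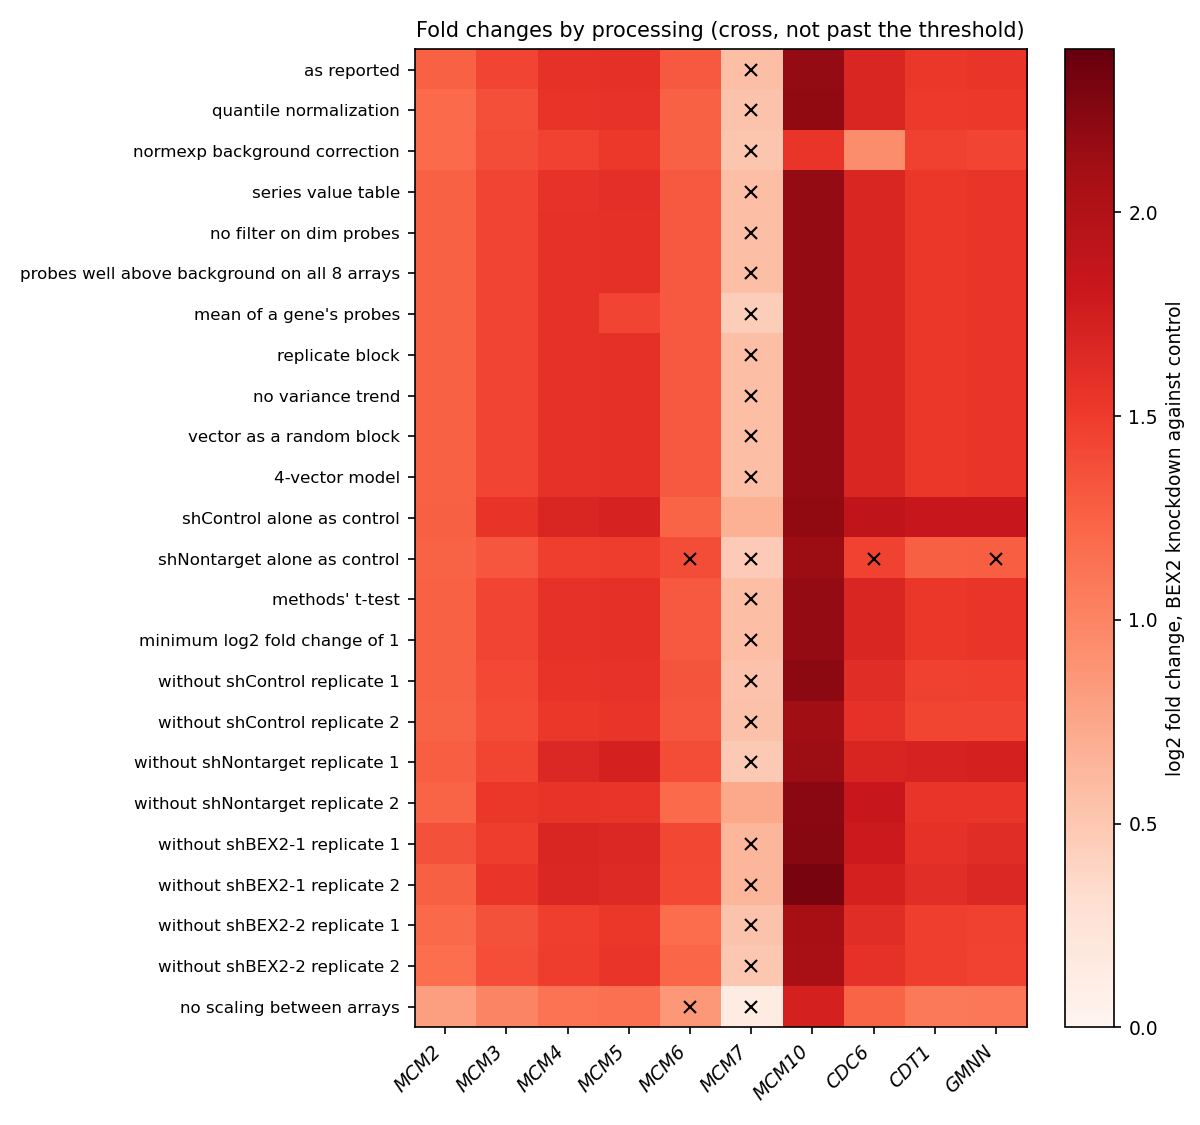
Log2 fold change of each licensing factor in the knockdown arrays against the control arrays (colour) under the reported processing and each alternative (rows); a cross marks a gene not past an adjusted p of 0.05. MCM7 is crossed in all but 2 rows. With the shNontarget arrays alone as the control, 6 of the 10 genes stay called, and 1.67% of all genes are called in either direction.

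Each hairpin was then compared with the mean of both control vectors, all 4 vectors being groups of 1 model. In shBEX2-1, 9 of the 10 licensing factors were called higher, against 3.38% of all genes, with log2 fold changes of 0.97 (MCM6) to 1.85 (MCM10) among those called. In shBEX2-2 the number was again 9 of 10, against 4.85% of all genes, with log2 fold changes of 1.43 (MCM2) to 2.48 (MCM10). MCM7 was the gene not called in either comparison, at 0.40 (adjusted p = 0.37) in shBEX2-1 and 0.75 (adjusted p = 0.10) in shBEX2-2. Both comparisons share the control arrays and are therefore not independent of each other. The shBEX2-1 calls depended on the spread pooled over the 4 vectors. Leaving out a shControl, shBEX2-1 or shBEX2-2 array removed most or all shBEX2-1 calls, among the 10 and among all genes alike. Leaving out a shBEX2-2 array did the same to the shBEX2-2 calls. In each of these settings 1 vector rested on 1 array. Leaving out a shNontarget array instead added calls in both comparisons, again among the 10 (MCM7) and among all genes. With 1 array left out at a time, the log2 fold change of MCM7 was 0.21 to 0.59 in shBEX2-1 and 0.56 to 0.95 in shBEX2-2. All 10 log2 fold changes stayed above 0 in these settings.

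**Figure D3:**
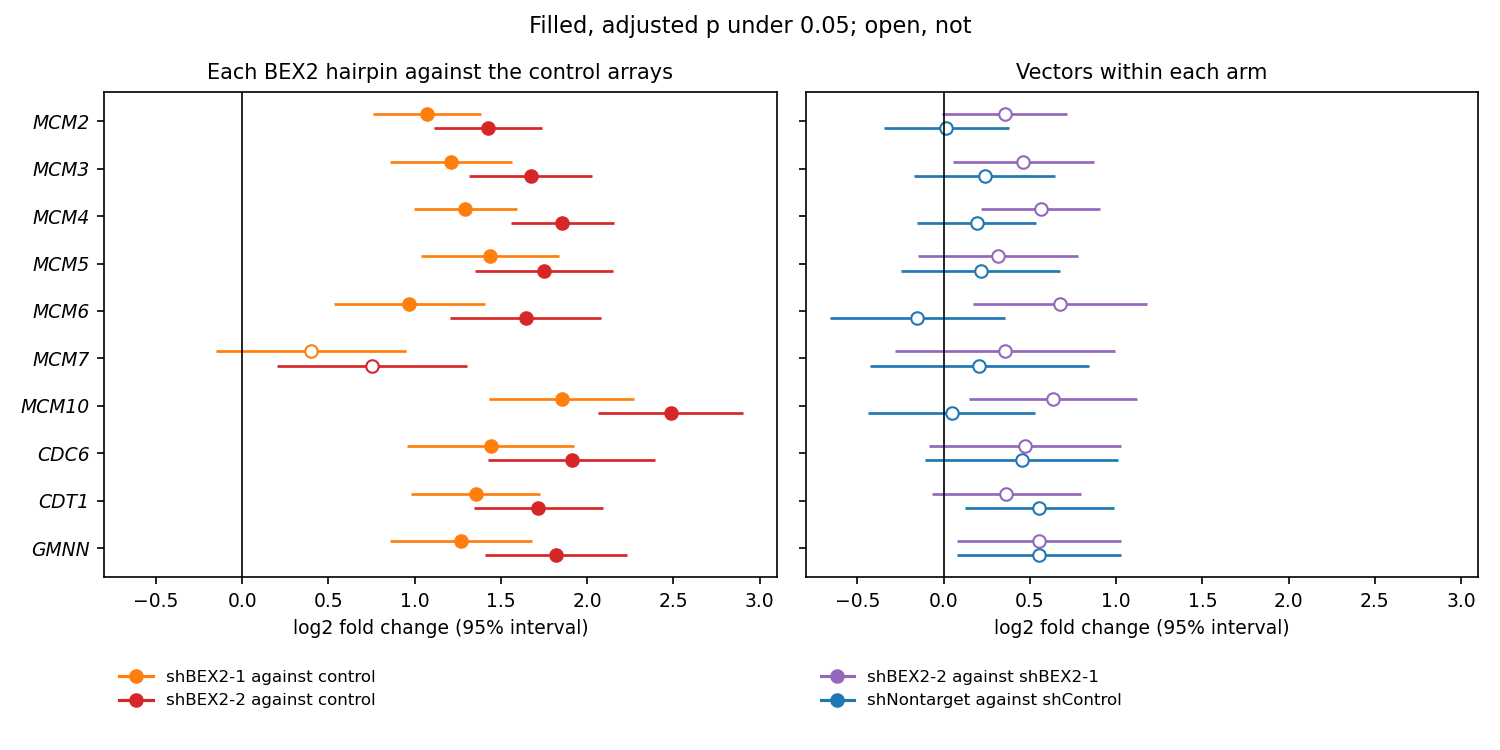
Log2 fold changes (points) with 95% intervals (lines) of the 10 licensing factors from the model with 4 vectors; the left panel sets each BEX2 hairpin against the 4 control arrays, and the right panel compares the vectors within each arm. All 10 genes are higher in shBEX2-2 than in shBEX2-1, by 0.31 to 0.67, but no point in the right panel is filled, since none passes an adjusted p of 0.05.

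Within the knockdown arm, all 10 genes were higher in shBEX2-2 than in shBEX2-1. BEX2 itself read 0.61 higher in shBEX2-2 on the log2 scale, but this did not pass limma's test (SE 0.42, adjusted p = 0.97). On the shBEX2-1 arrays BEX2 was not well above background, and a link between its level and the licensing factors was not tested. The log2 differences of the 10 genes ran from 0.31 (MCM5) to 0.67 (MCM6), with a median of 0.47, against -0.04 over all genes. None of the 10 passed the test, against 0.00977% of all genes (2 genes), and the lowest adjusted p was 0.32, for MCM4 (log2 difference 0.56, 95% interval 0.22 to 0.91). At an unadjusted p under 0.05, 5 of the 10 and 1492 of all genes passed. A difference between the hairpins is not excluded by this, since the interval for MCM10 reached 1.12 and that for MCM6 reached 1.18 on the log2 scale. Both shBEX2-2 arrays were above both shBEX2-1 arrays in all 10 genes, against 26.7% of all genes. The spread of the shNontarget arrays enters the pooled variance of this test. Without either of these arrays, 9 of the 10 genes passed the test in the same comparison, CDC6 being the exception (adjusted p = 0.085 without replicate 1 and 0.084 without replicate 2). In these settings 14.4% and 14.7% of all genes passed.

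Within the control arm, the log2 difference of shNontarget from shControl ran from -0.15 (MCM6) to 0.55 (CDT1 and GMNN), with a median of 0.21. Neither any of the 10 nor any other gene passed limma's test (0% of all genes), while at an unadjusted p under 0.05, 2 of the 10 and 1567 of all genes did. Those were CDT1 (log2 difference 0.55, 95% interval 0.12 to 0.98) and GMNN (0.55, 0.08 to 1.03). Both shNontarget arrays were above both shControl arrays in 5 of the 10 genes, against 14.4% of all genes. Without shNontarget replicate 1, 6 of the 10 passed the test, when 45.1% of all genes did, and without replicate 2, 4 did, when 46.2% of all genes did, so the licensing factors stood near the share of all genes. In both settings the shNontarget vector rested on 1 array whose spread was assumed to be that of the other vectors. The gap between the shNontarget replicates was the widest of the 4 vectors in 8 of the 10 genes. Over all 10 genes its size ran from 0.12 (MCM2) to 0.76 (MCM7), against at most 0.29 in any other vector. In order of vector means, 9 of the 10 genes ran shControl, shNontarget, shBEX2-1, shBEX2-2 from lowest to highest, and in MCM6 shNontarget was below shControl. Neither shNontarget and shControl nor the BEX2 hairpins, the neighbours at either end of this order, differed by the test in any of the 10 genes. With shNontarget alone as the control, shBEX2-1 was called higher in 6 of the 10 genes (not in MCM6, MCM7, CDC6 and GMNN), when 3.14% of all genes were called in either direction. In the same setting shBEX2-2 was called higher in 9 of 10, when 6.19% of all genes were called in either direction.

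The partners of the licensing factors were described from fixed lists, by the comparison of 4 knockdown with 4 control arrays. In that comparison 6.68% of all genes were called higher. Of the origin recognition complex with its partner LRWD1, 3 of 7 genes were called higher (ORC1, ORC3 and ORC6, the last 2 named after their values were seen) and none lower, with a list median of 0.59 on the log2 scale. ORC1, the subunit whose amount rises and falls with the cell cycle, led the list with a log2 fold change of 1.74 (SE 0.25, adjusted p = 0.0032). ORC4 had the lowest, at -0.12 (adjusted p = 0.63). Of the 13 origin firing genes, which turn the loaded ring into a helicase, 12 were called higher and none lower, and DBF4B (1.41, adjusted p = 0.11), named after its value was seen, was the one not called. The list median was 1.42, close to that of the licensing factors. CDC45, a component of the active helicase, had a log2 fold change of 1.92 (SE 0.21, adjusted p = 0.0013), GINS2, a subunit of the GINS complex, had the largest at 1.98 (SE 0.26, adjusted p = 0.0027), and DBF4, the activating subunit of the CDC7 kinase, the smallest at 0.93 (SE 0.16, adjusted p = 0.0061).

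Of the 12 genes for the turnover of CDT1 and geminin, 6 were called higher and none lower, with a median of 0.39. The largest log2 fold change was that of DTL, the receptor that brings CDT1 to the CUL4 ubiquitin ligase in S phase, at 1.95 (SE 0.12, adjusted p = 6.2e-04). The lowest was that of CUL4A, the scaffold of the same ligase, at -0.28 (SE 0.12, adjusted p = 0.15). Of the relatives and partners of the MCM proteins, 4 of 5 were tested and 1 was called, MCM8, a helicase of recombination, at 1.57 (SE 0.18, adjusted p = 0.0016), while MCM9, with which it works, was at -0.08 (SE 0.41, adjusted p = 0.93). In shBEX2-1 the numbers called higher in these lists were 2 of 7, 11 of 13, 4 of 12 and 1 of 4. In shBEX2-2 they were 2 of 7, 12 of 13, 6 of 12 and 1 of 4. Over all genes tested, 3.38% were called higher in shBEX2-1 and 4.85% in shBEX2-2. No gene of the lists was called lower with either hairpin.

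**Figure D4:**
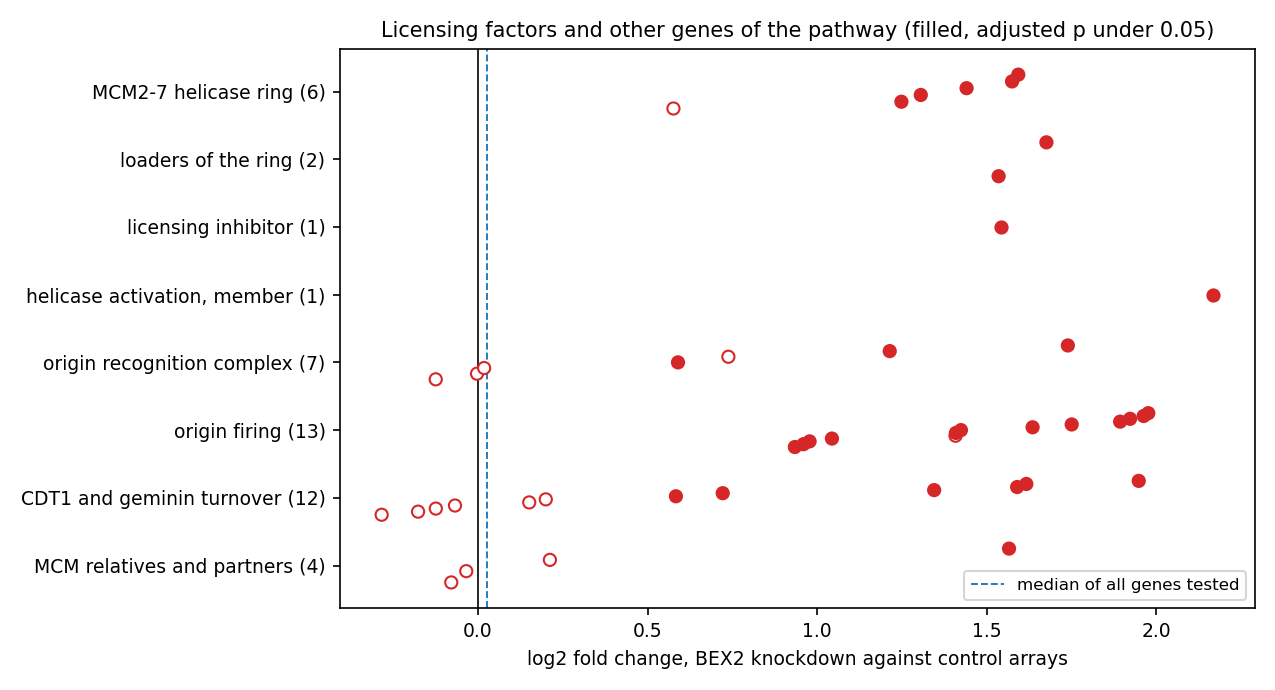
Log2 fold change of each tested gene in the knockdown arrays against the control arrays, by functional list with the number of genes in brackets; filled points pass an adjusted p of 0.05, open points do not, and the dashed line is the median of all genes tested. Origin firing genes lie in the range of the licensing factors, from 0.93 to 1.98, while the origin recognition list spreads from -0.12 to 1.74.

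Among 17859 other genes above background on all 8 arrays, the 5 whose profiles were most like the mean profile of MCM2 to MCM7 were HAUS7, CENPO, CHAF1A, BARD1 and SMC2. Likeness was the root mean square difference of the centred log2 values over the 8 arrays, which was 0.058 for HAUS7 and 0.11 for SMC2, against a median of 0.73 over all genes compared. HAUS7 is a subunit of the augmin complex of the spindle, CENPO a centromere protein, CHAF1A a subunit of the chromatin assembly factor CAF-1, BARD1 the partner of BRCA1 and SMC2 a condensin subunit. Their log2 fold changes ran from 1.21 (BARD1) to 1.38 (CHAF1A), which lies within the range of MCM2 to MCM6 or just below it. This closeness follows from the choice of the genes by likeness over the same 8 arrays. By the same measure MCM2 differed from the mean profile by 0.085, CDC6 by 0.26, MCM7 by 0.42 and MCM10 by 0.46. MCM2 and MCM7 are themselves part of that mean.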

How the data were processed

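Gene expression was measured on 8 single-colour Agilent arrays, 2 for each of 4 vectors. Per the file headers, the deposited intensity values were extracted with Agilent Feature Extraction 10.7.3.1 (design positions on hg19), and the processed intensity is already background-subtracted by that software. The deposited value table matched that intensity within 0.497% on every array, so it is linear and not centred. Here, log2 of the processed intensity minus each array's 75th percentile was averaged over the spots of a probe, without outlier spots. Probes stayed in when no fewer than 4 of the 8 arrays flagged them well above background, and the brightest probe by mean stood for a gene. Comparisons used limma 3.58.1 in R 4.3.3 with a variance trend, either 4 against 4 arrays or a model with 4 vectors, and Benjamini-Hochberg adjustment over 20463 genes. The scripts were tested on simulated data.

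Precision is limited by the number of arrays. The licensing factors and the lists were chosen with earlier results of these data known. The genes named are the licensing factors, BEX2, ORC1 and CDC45, the highest and the lowest log2 fold change of each list, and the 5 nearest profiles. The cell type markers came from a list of their own, and ORC3, ORC6 and DBF4B were named outside the rule. Alternatives covered normalization, background, filter, probes, controls, blocks and left-out arrays. The study's rank product, which resamples over genes, was not run. Promoter windows are from RefSeq (GRCh38.p14), and all 10 symbols matched RefSeq symbols.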

Additional observations from a re-analysis of the deposited data

Results flagged for a closer look

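In 20 sets of 4 arrays (10 licensing factors, 2 arms), 1 array lay far from the other 3, and chance flags about 1 in 20 such sets. For MCM5 in the control arm, shNontarget replicate 1 read 0.96 and the other 3 control arrays 0.44 to 0.51 (log2), so that the gap took up 0.868 of the range, over Dixon's 95% limit for 4 arrays. Without this array the log2 fold change of MCM5 was 1.72, against 1.59 with it.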

How the results depend on the processing

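Over 23 alternatives for the 4 against 4 comparison, every licensing factor kept its direction, and 6 to 10 of the 10 were called. MCM2, MCM3, MCM4, MCM5, MCM10 and CDT1 were called in all of them. The exceptions were MCM6, CDC6 and GMNN with shNontarget alone as the control, MCM6 without scaling (an alternative chosen after seeing the data), and MCM7, which passed with shControl alone or without shNontarget replicate 2. With shControl alone 33.4% of all genes were called, and with shNontarget alone 1.67%. Without scaling the share was 23.2%, and without shNontarget replicate 2 it was 21%. Leaving out 1 array at a time gave 9 to 10 called in the 4 against 4 comparison, with 1246 to 4723 of all genes. The calls in the comparisons of vectors changed with the array left out, whose vector then rested on 1 array. With shControl alone as the control 8 were called in shBEX2-1 (5.32% of all genes) and 9 in shBEX2-2 (7.41%), and with shNontarget alone 6 (3.14%) and 9 (6.19%).

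Several small differences changed sign. Between shNontarget and shControl, MCM2 was at -0.0057 with quantile normalization, -0.0016 with normexp and -0.13 without scaling, and MCM10 at -0.10 without scaling. Leaving out 1 array, this difference ranged from -0.043 to 0.074 for MCM2, -0.045 to 0.47 for MCM5, -0.45 to 0.14 for MCM6, -0.17 to 0.59 for MCM7 and -0.10 to 0.19 for MCM10. MCM7 in shBEX2-1 was at -0.24 without scaling. The cause was not tested.

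The number of all genes called in the 4 against 4 comparison was 2646, and 6842 with shControl alone, 341 with shNontarget alone, 1160 with a minimum log2 fold change of 1, 4752 without scaling and 1246 to 4723 with 1 array left out. With normexp, 1798 of 2833 called genes were higher there. For shBEX2-1, 1426 genes were called (691 higher), with normexp 2432 (1744 higher), without scaling 6105 (234 higher), with shNontarget alone 642, and 0 to 10822 with 1 array left out. For shBEX2-2, 1977 were called (993 higher), without scaling 1754 (475 higher), with shNontarget alone 1266, and 0 to 11151 with 1 array left out. Same-numbered arrays deviated together with r = -0.063 to 0.26 over genes, so the numbers were not taken as pairs. With the replicate block, 9 licensing factors were called in each comparison with the control arrays and 0 in the others. No call of the 10 changed. Of all genes, 2458 were then called in the 4 against 4 comparison, 1018 in shBEX2-1, 1597 in shBEX2-2 and 0 in the others.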
